A study of Xenopus laevis with 32 samples.

Results

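In oocytes of the frog Xenopus laevis, 551 genes used 1 dominant poly(A) site, meaning that at least 90% of their 3' end reads fell at a single listed site. They were chosen by their PAS-seq reads among the 3910 genes that had at least 50 such reads outside the mitochondrial genome. The 551 made up 14.1% of these genes (Wilson 95% interval 13.0 to 15.2%), out of 13340 genes with any listed site. Because site reads chose the genes, the use of sites is described below without a test. Gene classes, RNA levels and polysome shares did not enter the rule. The genes and the class lists were, however, chosen with earlier results of these data known.

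Most animal genes can be cleaved and polyadenylated at more than 1 place, and the site that is used sets how much 3' untranslated region the mRNA carries. That region holds most of the elements through which stored maternal mRNAs are silenced, translated or deadenylated. Housekeeping genes such as those for ribosomal proteins are known for short 3' untranslated regions. During meiotic maturation transcription is off, and translation is changed largely through the length of the poly(A) tail.

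The oocytes were taken at stage VI before progesterone (stage VI), 90 minutes after this hormone, which starts maturation (PG90), at meiosis I (MI), at interkinesis and at meiosis II (MII). Polyadenylated RNA from free mRNP, monosome and polysome fractions of sucrose gradients gave 30 libraries, 2 for each of 3 fractions at 5 stages, and the labels name no genotype, strain or further treatment. PAS-seq, which sequences RNA 3' ends, was run in 2 lanes on stage VI oocytes, and both lanes are summed in 1 deposited column. RNA levels and polysome shares were deposited in 2 column sets, x and y, per stage, and nothing in the labels says that these came from separate animals. All 12 oocyte markers looked for were listed at stage VI, and 0 of 6 blood markers. Of 7 genes looked for as follicle cell markers, 1 was listed, cyp17a1.L, at a level of 45.5 in x and 11.7 in y. Which cells its RNA came from was not tested, so it is no sign of follicle cells by itself. The oocyte markers ranged over levels of 4.86 to 7597 in x and 1.64 to 4228 in y.

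The 551 genes held 62848 PAS reads, 13.6% of the reads of the 3910 genes. Reads per gene lay between 50 and 968 with a median of 83, against a median of 87 in the 3359 other genes. A single site was listed for 240 of the 551 (43.6%), 2 sites for 255, 3 sites for 41, and 4 or more for 15, with at most 7. The median number of listed sites was 2 in genes with a dominant site and 6 in the other genes. Over all 3910 genes the most used site held a median of 54.4% of the reads, so the 551 lay at the far end of a broad distribution. At 95% or more there were 313 genes, among them the 240 with 1 site.

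**Figure D1:**
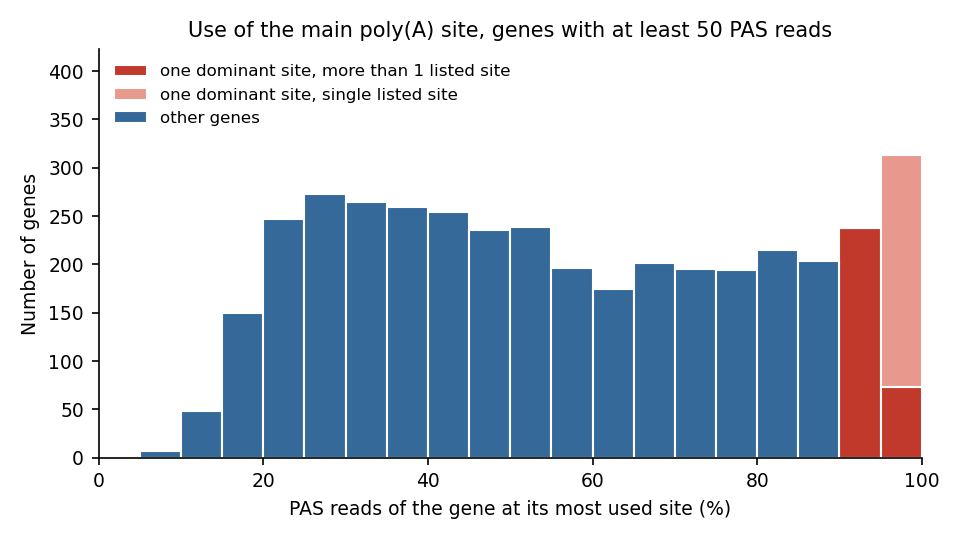
Number of genes (vertical axis) by the percentage of their PAS reads at the most used poly(A) site (horizontal axis, steps of 5%), for the 3910 genes with at least 50 reads. Red bars are the 551 genes with a dominant site, the paler part being the 240 with a single listed site, and blue bars are the other genes. The last step, 95 to 100%, is the tallest with 313 genes.

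Dominant sites were found at every depth of PAS-seq coverage. A dominant site was found in 228 of 1504 genes with 50 to 74 reads (15.2%) and in 121 of 824 with 75 to 99 reads (14.7%). It was found in 153 of 1134 genes with 100 or more and under 200 reads (13.5%) and in 49 of 448 with 200 reads or more (10.9%). The share with only 1 listed site dropped more steeply over these classes, being 7.78%, 6.80%, 5.03% and 2.23%. A site needed few reads to be listed, the lowest having 2.

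Among the 551, the gene with the most reads that carries a gene name was ilf2.L, which encodes a subunit of a double-stranded RNA-binding complex. It had 818 of 860 reads (95.1%, Wilson 93.5 to 96.4%) at position 118089251 of chromosome 8L, and 4 further sites. Positions are given as listed, and the genome build is not given in the sources used here. A listed site spans a stretch of the genome, with a median width of 66 nt and at most 331 nt. Reads at 1 site are thus not reads at a single base. The ribosomal protein gene rpl39.S had 552 of 567 reads at position 38324901 of chromosome 8L (97.4%, 95.7 to 98.4%). The histone H3 gene hist2h3d.L had 571 of 586 reads (97.4%), and the histone variant gene h2afz.L (H2A.Z) had 438 of 460 (95.2%). The inhibitor-of-apoptosis family gene birc7.S reached 92.3%, with 517 of 560 reads over 6 listed sites. Enzymes of glycolysis were also among the 10 with the most reads. Pyruvate kinase pkm.L had 518 of 527 reads at 1 site (98.3%), gapdh.L had 454 of 500 (90.8%) and enolase eno1.S had 411 of 448 (91.7%).

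All reads fell at 1 site in snrpb.S, which encodes a core protein of the splicing snRNPs, at position 27132858 of chromosome 9_10S. Its 317 reads give a lower Wilson limit of 98.8%. The same held for the histone gene hist1h2aa.L with 299 reads, the ribosomal protein genes rps12.S and rplp0.S with 287 reads each, and rpl34.S with 234 reads. These intervals cover counting error only and take each read as a separate molecule. The deposited counts do not show whether molecules were counted once, so the intervals may be too narrow.

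At the 90% limit the genes on either side were nearly alike. Just inside it were pold2.L, a subunit of DNA polymerase delta (198 of 220 reads), hnrnph1.S, an RNA-binding splicing regulator (63 of 70), and pet100.L, an assembly factor of cytochrome c oxidase (63 of 70), each at 90.0%. Just outside it were birc5.1.L, a survivin gene (134 of 149 reads, 89.9%), sdhc.S of succinate dehydrogenase (89 of 99, 89.9%) and ndufa9.L of respiratory complex I (80 of 89, 89.9%). With 70 reads a share of 90.0% has an interval of 80.8 to 95.1%, so counting error alone can move such a gene across the limit.

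Where a second site existed, it was usually upstream, and the 90% limit itself keeps such sites small. The 311 genes with more than 1 site had 395 minor sites with 2467 reads in all, a median of 5 reads per site and at most 34. Of these minor sites 357 lay upstream of the main site on the gene's strand and 38 downstream, so that 90.4% were upstream. Among the other 3359 genes, 68.9% of the 18800 minor sites were upstream of the main one. The median distance to the main site was 884 nt in genes with a dominant site and 2341 nt in the other genes. None of the 395 lay within 50 nt of the main site, 209 lay within 1000 nt and 186 beyond it. Listed sites had a median width of 66 nt, which limits how close they can lie. The dominant site was the most downstream listed site in 277 of the 311 genes (89.1%), against 1715 of the 3359 others (51.1%). None of these comparisons was matched for the number of sites, which bears on each of them. Of the 311 genes 255 had 2 sites, while the others had a median of 6.

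Among the classes counted by gene symbol, the highest shares were those of cytosolic ribosomal proteins and of the respiratory chain. Of 33 genes for proteins of the small cytosolic ribosomal subunit, 20 had a dominant site (60.6%, Wilson 43.7 to 75.3%). Of 45 for the large subunit, 21 did (46.7%, 32.9 to 60.9%). Subunits of the respiratory chain and ATP synthase, with their assembly factors, gave 25 of 54 (46.3%, 33.7 to 59.4%). All 3 intervals lie above the 14.1% of the 3910 genes. Such intervals take genes as independent, although related copies of a gene, described below, often qualified together. They are therefore descriptions and may be too narrow. Without ribosomal and respiratory genes, 485 of 3778 genes had a dominant site (12.8%), so these classes supplied a minor part of the 551.

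Dominance was graded within these classes rather than all or none. Over the 78 ribosomal protein genes the median share of the most used site was 91.9%, and the lowest was rpl11.L with 24 of 58 reads (41.4%). Over the 54 respiratory genes the median was 89.3%. Among those with a dominant site, rps20.S had 488 of 502 reads (97.2%), rplp0.L, which encodes the ribosomal stalk protein, had 524 of 528 (99.2%), cox7a2.L of cytochrome c oxidase had 261 of 265 (98.5%) and atp5l.L of ATP synthase had all of its 167 reads at 1 site.

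Smaller classes followed with wide intervals. Proteasome genes gave 7 of 19 (36.8%, 19.1 to 59.0%), including the core subunit gene psmb6.L with all 114 reads at 1 site, the regulatory subunit gene psmd12.L with 247 of 265 (93.2%), and psmg3.L, for an assembly chaperone, with all of 100. Aminoacyl-tRNA synthetases gave 4 of 11 (36.4%) and translation elongation factors 3 of 10. Of 15 histone genes 4 had a dominant site (26.7%). Chaperonin and heat shock genes gave 11 of 47 (23.4%), among them cct2.L and cct2.S for the same chaperonin subunit. Genes with TMEM symbols, for transmembrane proteins of many kinds, gave 8 of 24 (33.3%, 18.0 to 53.3%). Mitochondrial ribosomal proteins, at 3 of 16 (18.8%, 6.59 to 43.0%), and translation initiation factors, at 6 of 41 (14.6%), had intervals on both sides of the 14.1% of all genes.

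Among the classes with the lowest shares, the intervals of phosphatase subunits and splicing factors lay wholly under 14.1%, and those of the others described here reached past it. These intervals too take genes as independent. None of 21 genes for cyclins and cyclin-dependent kinases had a dominant site, with a Wilson upper limit of 15.5%. Their most used site held a median of 55.8% and at most 86.3% of the reads, over a median of 9 listed sites. Only ppp2r1b.S, a scaffold subunit of protein phosphatase 2A, qualified among 39 phosphatase subunit genes (2.56%, 0.454 to 13.2%). Likewise kif24.L, a kinesin gene, was alone among 33 kinesin and tubulin genes (3.03%, 0.537 to 15.3%). Splicing factors and hnRNPs gave 4 of 75 (5.33%, 2.09 to 12.9%), snrpb.S among them, and ubiquitin conjugation and deubiquitination gave 2 of 38 (5.26%, 1.46 to 17.3%). One of these 2 was ube2c.S, the ubiquitin-conjugating enzyme of mitotic cyclin destruction, with 193 of 198 reads at 1 site (97.5%). The machinery of 3' end formation and tail length itself gave 2 of 28 (7.14%, 1.98 to 22.6%), the cleavage factor gene cstf1.S and pabpn1l.S, a nuclear poly(A)-binding protein relative.

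**Figure D2:**
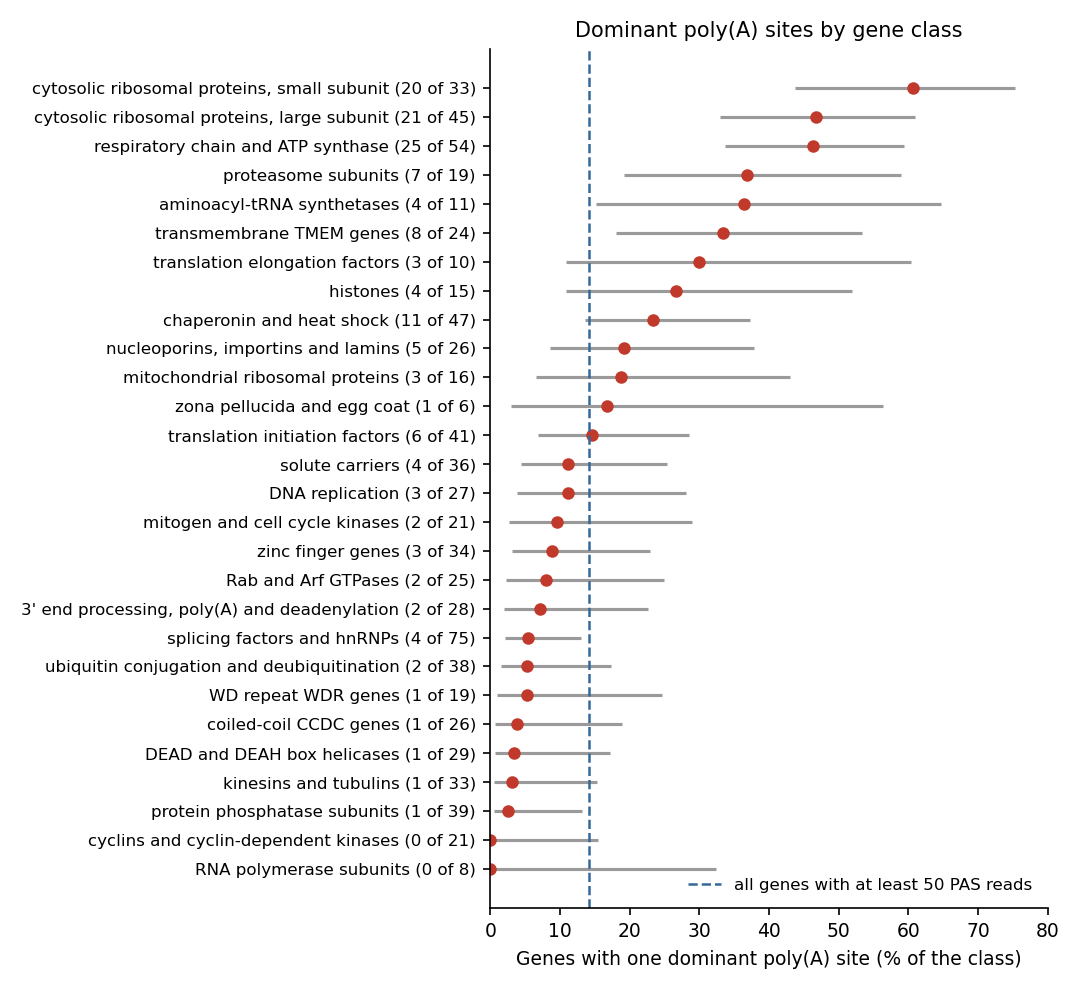
Percentage of genes with a dominant poly(A) site (horizontal axis) in each of 28 named classes (vertical axis, with counts), as points with Wilson 95% intervals. The intervals take genes as independent, which related copies are not. The dashed line marks the 14.1% of all genes with at least 50 PAS reads. Both ribosomal classes, the respiratory, proteasome, tRNA synthetase and TMEM classes lie wholly to its right, while phosphatase subunits (2.56%) and splicing factors (5.33%) lie wholly to its left.

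Xenopus laevis carries 2 related subgenomes, L and S, so many genes have a copy on each. Of 582 pairs in which both copies had at least 50 reads, 39 had a dominant site in both, 59 in 1 copy and 484 in neither. Put per copy, 56.9% of the 137 copies with a dominant site had a partner with one, against 5.74% of the copies without. Both copies of rps20 (94.0% for L and 97.2% for S), rplp0 (99.2% and 100%), birc7 (92.5% and 92.3%), pkm (98.3% and 100%) and rps12 (98.0% and 100%) qualified. Copies with near-identical sequence can exchange reads, and how such reads were placed is not given in the sources used here. Where only 1 copy qualified, the other copy's main site still held a median of 82.5%, and in 4 of these 59 pairs under 50%. The lowest such copies were those of c7orf60 (92.0% for L, 35.1% for S), lmo4.2, a LIM-domain transcription cofactor (100% for S, 43.3% for L), and letm2, a mitochondrial membrane protein (94.6% for L, 35.2% for S).

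By position the genes were spread over every chromosome. The share with a dominant site ran from 19 of 190 genes on chromosome 5L to 45 of 234 on 9_10L (19.2%) and 39 of 170 on 9_10S (22.9%). It was 13.0% of 1933 genes with the suffix L and 13.9% of 1363 with the suffix S. Of 614 genes with no suffix it was 18.1%. The suffix is that of the name, and in 21 of the 551 it differed from that of the chromosome, as in rpl39.S on 8L. Of the 551, 112 were gene models without a gene name.

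RNA levels could be joined by name for 427 of the 534 genes with a dominant site whose name belonged to 1 gene ID, and for 3179 of 3296 other genes (96.5%). The libraries hold polyadenylated RNA, so a loss of the RNA and a loss of its tail cannot be told apart, nor can fewer oocytes of a kind and less RNA per oocyte. The unit of the levels is not stated, and the x and y sets are on different scales. Levels were therefore compared within a gene and a column set, as the ratio of a later stage to stage VI.

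RNA levels of genes with a dominant site were lower at MII than at stage VI, while those of the other genes were not, as medians. The median ratio of MII to stage VI was 0.88 in x and 0.64 in y for the 427 genes, against 1.10 and 1.06 for the 3179 other genes. Over all 11765 names it was 1.05 in x and 1.04 in y. These ratios were not tested, and a change was counted where it reached 2-fold in both sets. A ratio at or under 0.5 in both sets was found for 56 of the 427 genes (13.1%), against 3.37% of all genes and 86 of the 3179 other genes (2.71%). A ratio of 2 or more in both sets was found for 0 of the 427, against 0.977% of all genes and 24 of the others.

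Medians were under 1 from PG90 on, and changes of 2-fold came mostly at interkinesis and MII. Levels under stage VI in both sets were found for 46.6% of the 427 genes at PG90 and 45.2% at MI, against 23.4% and 28.5% of the other genes. At PG90 the median ratio was 0.94 in x and 0.86 in y in genes with a dominant site, with 1 gene at least 2-fold lower (0.263% of all genes) and 1 at least 2-fold higher (0.306% of all genes). At MI it was 0.93 and 0.88, with 2 lower and 2 higher (0.450% of all genes in each direction). At interkinesis it was 0.81 and 0.70, with 21 lower (4.92%, against 1.43% of all genes) and 1 higher (0.629% of all genes). In the other genes no median at these stages lay under 1 in either set. The few higher ones, named here after their values were seen, were eif3c.L at PG90, an initiation factor subunit gene (2.23 in x and 3.35 in y), hn1.S at MI (2.05 and 7.67), and letm2.L at MI (2.53 and 3.79) and interkinesis (2.40 and 5.80). The lower ones were a gene model without a name at both stages and atp6v1b2.S, a subunit of the vacuolar proton pump, at MI (0.41 and 0.47).

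The ratio at MII was graded over the whole range of site use. In x the median was 1.23, 1.13, 1.04, 0.98 and 0.88 in genes whose main site held under 30%, 30 to 50%, 50 to 70%, 70 to 90% and 90% or more of the reads. In y the medians of these classes were 1.26, 1.11, 0.97, 0.83 and 0.64. The share at least 2-fold lower in both sets was 7 of 700 genes, 1.55%, 3.26%, 5.26% and 13.1%. Across the 3606 genes Spearman's rho between site use and the ratio was -0.26 in x and -0.36 in y. Genes share libraries and are not independent, so these are descriptions.

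**Figure D3:**
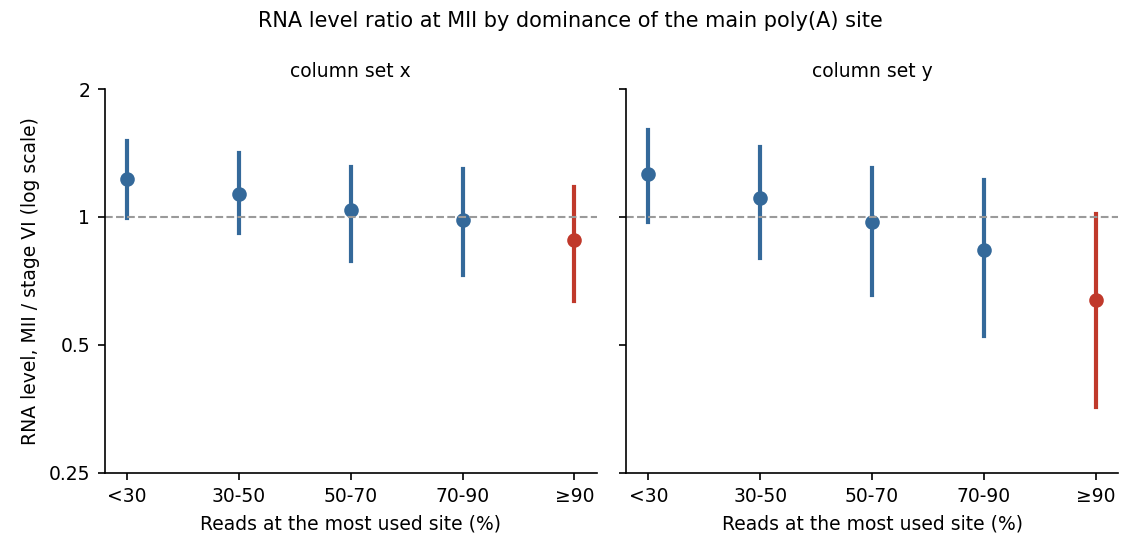
Ratio of RNA level at MII to stage VI (vertical axis, log scale) by the percentage of PAS reads at the most used site (horizontal axis), in column sets x and y. Points are medians over genes and lines run from the lower to the upper quartile; red marks genes with a dominant site. The medians descend from 1.23 to 0.88 in x and from 1.26 to 0.64 in y.

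The difference was seen in each class of PAS reads. In the 4 classes the median ratio lay between 0.81 and 0.92 in x and between 0.46 and 0.72 in y for genes with a dominant site, against 1.07 to 1.18 and 1.04 to 1.09 for the others. The deposited stage VI level moved with site use, with a median of 69.6 in x and 11.3 in y for genes with a dominant site and 128 and 29.0 for the others. Whether levels are per length is not stated, so this is no comparison of RNA amounts. The 3606 genes were split into 4 equal classes of level, and the ratio was read in the other column set. From the lowest to the highest class of x level the median ratio in y was 0.88, 0.52, 0.50 and 0.39 with a dominant site, against 1.05, 1.11, 1.11 and 0.98 without one. Over the classes of y level the median ratio in x was 0.97, 0.90, 0.79 and 0.76 with a dominant site, against 1.04, 1.12, 1.16 and 1.10 without one. The distance was least in the lowest classes, which held 171 of the 427 genes by x level and 201 by y level.

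Ribosomal and respiratory genes had low ratios with or without a dominant site. The 36 ribosomal protein genes with a dominant site had a median ratio of 0.72 in x and 0.35 in y, and the 34 other ribosomal protein genes 0.66 and 0.39. At least 2-fold lower in both sets were 11 of the 36 and 7 of the 34. For respiratory genes the medians were 0.61 and 0.36 over 19 genes with a dominant site and 0.79 and 0.40 over 28 without, with 6 and 5 at least 2-fold lower. With these classes left out, the median was 0.92 in x and 0.70 in y over 372 genes with a dominant site, against 1.11 and 1.07 over 3117 others, and 39 of the 372 (10.5%) against 74 of the 3117 (2.37%) were at least 2-fold lower.

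In some classes the genes with a dominant site differed from the rest of the class. The 6 proteasome genes with one had medians of 0.87 in x and 0.38 in y, against 1.26 and 1.22 for the 10 others. For translation initiation factors the medians were 0.61 and 0.45 over 5 genes, against 1.18 and 0.97 over 31. For nucleoporins, importins and lamins they were 0.69 and 0.58 over 5, against 1.23 and 1.04 over 17. Chaperonin and heat shock genes with a dominant site had 0.87 and 1.04 over 9 genes, against 1.18 and 1.24 over 36, a smaller distance in y. Not every class went this way. Splicing factors and hnRNPs had 1.84 and 0.91 over 3 genes with a dominant site, against 1.22 and 0.74 over 68. Small subunit ribosomal protein genes had 0.70 and 0.36 over 19, against 0.63 and 0.23 over 13. The groups are small, and the differences were not tested.

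**Figure D4:**
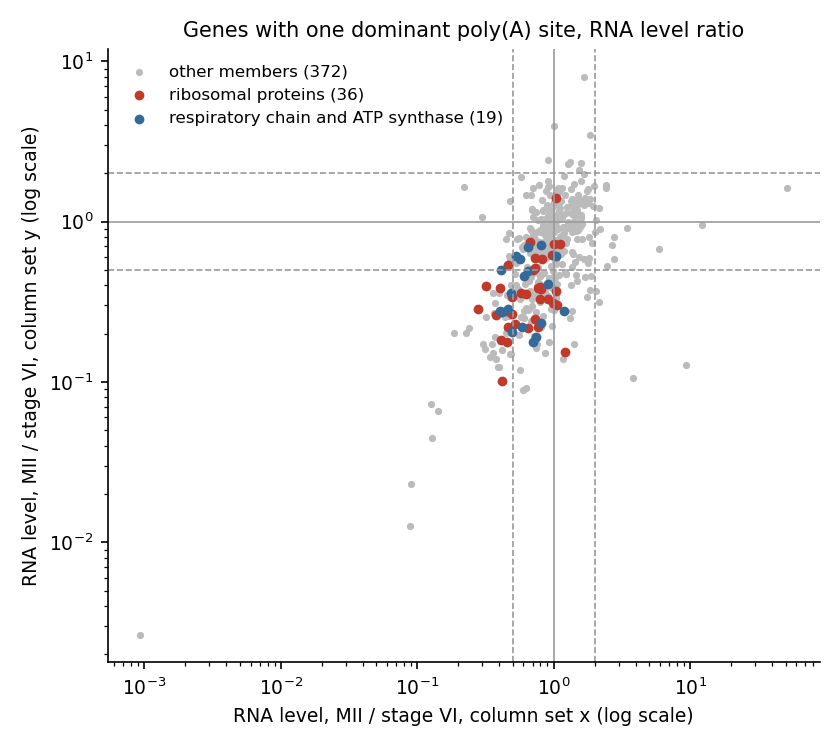
Ratio of RNA level at MII to stage VI in column set x (horizontal axis) and column set y (vertical axis), both on log scales, for the 427 genes with a dominant poly(A) site and a level. Red points are the 36 ribosomal protein genes, blue the 19 respiratory genes and grey the other 372; solid lines mark a ratio of 1 and dashed lines 2-fold changes. The lower left holds 56 genes past both dashed lines and the upper right holds 0.

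The level of rps13.L, a small subunit protein gene, was 988, 917, 879, 701 and 487 in x at stage VI, PG90, MI, interkinesis and MII. In y it was 153, 97.8, 135, 65.6 and 51.5. The last 2 stages were the lowest in both sets, and the ratio at MII was 0.49 in x and 0.34 in y. The large subunit gene rpl24.L, among the 5 with the highest levels, had 28238, 19309, 22099, 25155 and 12874 in x and 8046, 5703, 6363, 3894 and 2214 in y, with MII the lowest of 5 stages in each. In rplp0.L the ratio at MII was 0.28 in x and 0.29 in y, and in its S copy 0.82 and 0.58.

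Among respiratory genes the sets often differed in size of change. The ATP synthase gene atp5j.S had 1793, 1217, 1760, 1185 and 1050 in x and 209, 188, 196, 157 and 45.8 in y over the 5 stages. MII was lowest in both, at a ratio of 0.59 in x and 0.22 in y. Both copies of sdhb, the iron-sulfur subunit of succinate dehydrogenase, were at least 2-fold lower, with 0.46 and 0.28 for the L copy and 0.49 and 0.36 for the S copy.

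Glycolysis, counted as a class after some of its values were seen, gave 6 of 14 genes with a dominant site (42.9%). The level of gapdh.L was 748, 692, 517, 480 and 281 in x and 90.3, 73.1, 76.4, 27.1 and 12.5 in y from stage VI to MII. It was lowest at MII in both sets, with ratios of 0.38 and 0.14. Both aldolase copies were likewise lower, aldoa.L at 0.32 in x and 0.16 in y and aldoa.S at 0.37 and 0.31. The sets went apart in eno1.S, whose level in x was 99.8 at stage VI, 69.0 at interkinesis and 935 at MII, while in y it was 12.7, 4.90 and 1.62. For pkm.L the ratios were 1.31 in x and 0.25 in y. Low ratios were also found without a dominant site. The 5 glycolysis genes with one and a level had medians of 0.38 in x and 0.16 in y. The 8 others had 0.69 and 0.33. At least 2-fold lower in both sets were 3 of the 5 and 2 of the 8. Those 2 were gapdh.S (0.35 and 0.08) and tpi1.L (0.36 and 0.20).

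Of genes with a name that were at least 2-fold lower in both sets, ifrd1.L, hist2h2ab.S and fpgs.L were lowest by the mean of both log ratios. For ifrd1.L, an interferon-related developmental regulator gene, the level was 91040, 249508, 404509, 96746 and 84.9 in x, against 11053, 14179, 40.2, 28.8 and 29.3 in y. In x it stayed high until interkinesis and in y it was low from MI on, so the sets share the end point but not the time. The histone H2A gene hist2h2ab.S had 398, 398, 291, 224 and 51.4 in x and 138, 155, 78.9, 14.6 and 6.12 in y, decreasing from PG90 on in both. Folylpolyglutamate synthase, fpgs.L, had 95.02, 89.3, 69.2, 47.9 and 17.7 in x and 13.3, 10.3, 9.23, 3.76 and 2.67 in y, lower at each successive stage. Across the 427 genes Spearman's rho between the ratio in x and the ratio in y was 0.55. In single genes the sets could go opposite ways, and snrpb.S had 1.84 in x and 0.38 in y, and birc7.S 2.75 and 0.80.

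Polysome shares, the authors' fraction of a gene's RNA in polysomes, were listed for 84 of the 534 genes (15.7%), against 1387 of 3296 other genes (42.1%). What the share is taken of is not stated. The 84 are thus a small part of the 551 and may not stand for the rest. Of the 84, 14 encode ribosomal proteins, which make up 7.44% of the 551. Whether the listing of genes itself sets the 84 apart from the 1387 was not tested.

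At stage VI the 84 genes had a somewhat higher share than the other genes. The median was 0.386 in x and 0.345 in y, with a range of 0.172 to 0.559 in x and 0.173 to 0.578 in y, against medians of 0.339 and 0.325 in the 1387 others. The difference rested in part on ribosomal protein genes. The 14 ribosomal genes had medians of 0.432 and 0.393, and the 70 others with a dominant site 0.370 in x and 0.328 in y. In y these 70 were thus level with the other genes. By the mean of both columns, the highest shares at stage VI were those of cct2.S (0.559 in x and 0.501 in y), atp5j.S (0.554 and 0.503) and tstd3.L, which has a sulfurtransferase-like domain (0.548 and 0.485). The lowest by this mean were those of atg4c.S, an autophagy protease (0.254 and 0.2504), chchd4.S, a mitochondrial import protein (0.246 and 0.259), and anapc13.1.L, a subunit of the anaphase-promoting complex (0.187 and 0.317).

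As deposited, median shares were lower at MII than at stage VI, most in the ribosomal protein genes. In x the median of the 84 was 0.386, 0.354, 0.288, 0.271 and 0.266 from stage VI to MII, and in y 0.345, 0.346, 0.339, 0.302 and 0.249. In the other genes it was 0.339, 0.310, 0.284, 0.277 and 0.246 in x and 0.325, 0.322, 0.315, 0.307 and 0.286 in y. The 14 ribosomal genes ended at 0.235 in x and 0.191 in y, and the 13 other ribosomal protein genes at 0.192 and 0.197. The 70 remaining genes with a dominant site ended at 0.271 and 0.300. The ribosomal genes thus lay above the other genes at stage VI and below them at MII.

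**Figure D5:**
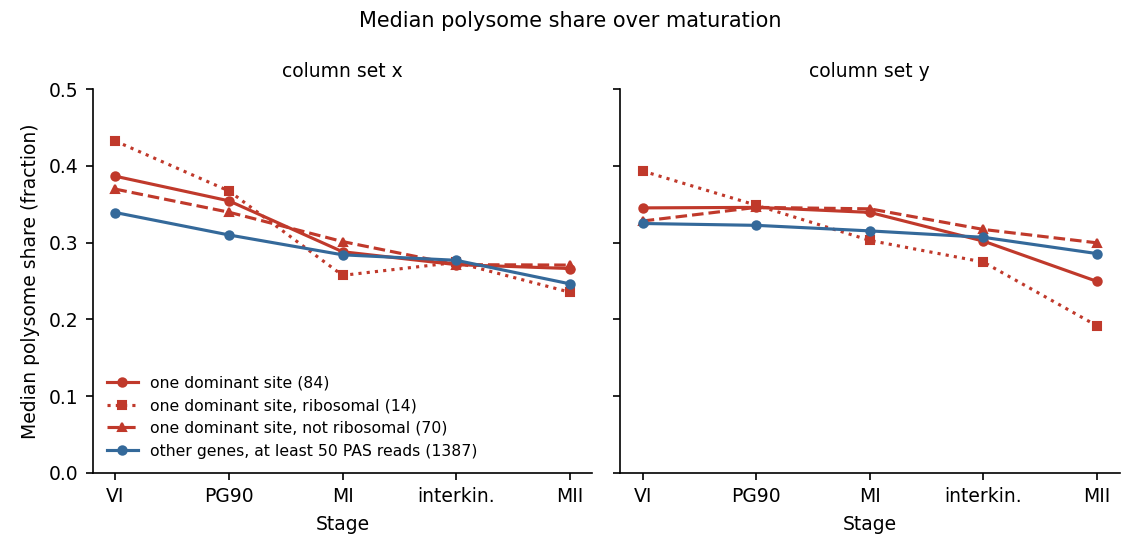
Median polysome share (vertical axis, fraction) at the 5 stages (horizontal axis) in column sets x and y. Red lines are the 84 genes with a dominant poly(A) site, the 14 ribosomal and the 70 not ribosomal among them, and the blue line is the 1387 other genes with at least 50 PAS reads. The ribosomal line starts highest, at 0.432 in x and 0.393 in y, and ends lowest in both sets.

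In a limma fit over all 6497 genes and 10 columns, on the log2 odds of the share, 9 of the 84 genes fell at MII against stage VI at a Benjamini-Hochberg adjusted p under 0.05 (10.7%). Lower calls made up 3.82% of all genes and 44 of the 1387 others (3.17%). Of the 9, 5 were ribosomal protein genes, which made up 14 of the 84. Neither the calls nor the median change were also taken without these genes. None of the 84 was called higher at the adjusted limit, against 0.554% of all genes. At an unadjusted p under 0.05 in the same fit, 31 were lower (36.9%, against 28.7% of all genes). By that limit 8 were higher (9.52%, against 4.05% of all genes). The median change at MII was -0.74 over the 84 (-0.81 in x, -0.60 in y), against -0.51 over the others and -0.57 over all genes. Relative to the median gene of each column it was -0.20. In limma's test 0 of the 84 passed at PG90, MI or interkinesis (0% of all genes). At an unadjusted p under 0.05, 3 were lower at PG90 (3.57%, against 0.847% of all genes). By the same limit 13 were lower at MI (15.5%, against 9.62% of all genes) and 1 higher (1.19%, against 2.06%). At interkinesis 17 were lower (20.2%, against 12.6% of all genes) and 5 higher (5.95%, against 3.39%). The calls depended on the scaling of columns and on the stage VI columns. As deposited, 248 of all genes were called lower and 36 higher. With each column centred on its median it was 20 lower and 107 higher, and with quantile normalization 10 lower and 44 higher. Of the 84, centring called 1 lower and 2 higher and quantile normalization 1 lower, that gene being 1 of the 9. Leaving out 1 stage VI column leaves that stage a single column, and calls were then lost over all genes, not only in the 84. The median change of the 84 was -0.59 without stage VI column x, against -0.54 over all genes. Without stage VI column y it was -0.86, against -0.56 over all genes.

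The largest fall was in zcchc9.L, which encodes a zinc knuckle protein. Its share was 0.166 in x and 0.0720 in y at MII, against 0.402 and 0.357 at stage VI, a change of -2.30 ± 0.47 (SE) in log2 odds (limma adjusted p = 0.0388). Next was rps13.L, at 0.157 in x and 0.136 in y at MII, against 0.432 and 0.392 at stage VI (-2.03 ± 0.30 (SE), limma adjusted p = 0.0388). It was the single gene that kept its call under both median-centring (-1.49) and quantile normalization (-1.61). The stalk gene rplp0.S had 0.111 and 0.200 at MII, against 0.432 and 0.394 at stage VI (-1.99 ± 0.49 (SE), limma adjusted p = 0.0470). In these 3 genes both MII columns lay below both stage VI columns, which was a condition for naming them.

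The chaperonin gene cct2.S had a share of 0.270 in x and 0.197 in y at MII, against 0.559 and 0.501 at stage VI (-1.91 ± 0.48 (SE), limma adjusted p = 0.0493). For ruvbl1.S, an ATPase of chromatin remodelling complexes, the shares were 0.141 and 0.118 at MII, against 0.312 and 0.358 at stage VI (-1.77 ± 0.35 (SE), limma adjusted p = 0.0388). The groups did not overlap in either gene, again a condition for naming them. The other 4 calls, given here after their values were seen, were rpl5.S (-1.68), letm2.L (-1.63), rpl24.L (-1.62) and rpl23.S (-1.45), so that 5 of the 9 were ribosomal. A low share at MII went with a lower RNA level in rps13.L, whereas zcchc9.L had a level ratio of 0.74 in x and 1.16 in y and ruvbl1.S 1.07 and 1.63.

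Shares were higher at MII in a minority, 20 of the 84, against 401 of the 1387 others and 1534 of all 6497 genes. None of the 20 had an adjusted p under 0.05 in this fit. The farthest was ube2c.S, at 0.583 in x and 0.833 in y at MII, against 0.343 and 0.367 at stage VI (2.26 ± 0.67 (SE), limma adjusted p = 0.0615). For snrpb.S the shares were 0.627 and 0.716 at MII, against 0.476 and 0.344 at stage VI (1.57 ± 0.53 (SE), limma adjusted p = 0.0806). Both were among the 3 genes called after median-centring, at 2.80 and 2.11. They were singled out after their values were seen.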

How the data were processed

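Per the submitters' processing notes, Bowtie, Bowtie2, TopHat2 and Cufflinks were used. Versions, genome build and filters are not given in the sources used here. Per the file headers, the authors deposited a read count per poly(A) site (41982 sites, 656192 reads; lanes pooled), a polysome share (a fraction) and RNA levels, read as a score of unstated unit with the authors' ratio to stage VI. The 4 mitochondrial genes (1.52% of reads) were left out. Sites of a gene were summed by gene ID, and tables were joined by lower-case name. Excluded were 17 genes with a dominant site whose name belonged to several gene IDs, and 178 repeated names of the level table. Depth of shares and levels is unknown.

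Log2(share / (1 - share)) was fitted with limma 3.58.1 (R 4.3.3) over 5 stages with 2 columns each, two-sided, with Benjamini-Hochberg adjustment over 6497 genes and a threshold of 0.05. Residual degrees of freedom were 5 and prior degrees of freedom 6.83. The fit was tested on simulated data with independent noise in each gene and no shift of whole columns. Such data cannot show how the calls depend on column scaling. Columns x and y were treated as replicates, so p-values measure only the spread between these columns, which may be technical. RNA level calls needed 2-fold in the same direction in both sets. Intervals are Wilson 95%, from statsmodels 0.14.6, and those over genes take each gene as independent.

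The genes and class lists were chosen with earlier results of these data known. Genes are named by most reads (10, and 5 with a single site), nearness to the 90% limit (3 each side), stage VI share (3 highest, 3 lowest), calls at MII (up to 5 each way), level (5 highest) and level change (3 each way), up to 3 per class, and homeolog pairs (5 and 3). Genes named by their calls also needed both MII columns beyond both stage VI columns. Alternatives were other read and share limits, merged or filtered sites, other scalings, fits and fold limits, and each column left out.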

Additional observations from a re-analysis of the deposited data

How the results depend on the processing

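The count of 551 genes became 970 with a limit of 80% and 313 with 95%, and 924 with at least 30 reads and 202 with at least 100. Merging sites within 25 or 50 nt gave 551 and 552 genes. Listed sites already had a median width of 66 nt, so this merging is a weak check. The ribosomal share of the group, 7.44%, was 10.5%, 4.98% and 15.8% with 95%, 30 reads and 100 reads. At MII against stage VI, limma called 284 of all genes and 9 genes with a dominant site. Median-centring gave 127 (20 lower, 107 higher) and 3, and quantile normalization 54 (10 lower, 44 higher) and 1. The x and y columns carry no replicate number, so a paired fit could only use the column set as a block: it gave 1654 (1436 lower, 218 higher) and 32 (28 lower, 4 higher), the 4 being ube2c.S, cldn6.1.L, snrpb.S and tmem18.S. Leaving out 1 column gave 0 to 106 and 0 to 5. Both counts were 0 without stage VI column x, where limma gave 1091 of all genes and 23 of the 84 at an unadjusted p under 0.05, and without stage VI column y, with 1388 and 25. Without MII column x they were 106 and 5, and without MII column y 88 and 3. The median change of the 84 genes at PG90, -0.083, turned to 0.029 with median-centring and 0.022 with quantile normalization, and ran from -0.23 to 0.0081 with 1 column left out. At interkinesis it was -0.47, and -0.16 after centring. At MII it was -0.74, and -0.20 and -0.21 under the 2 scalings, with -0.86 to -0.59 when 1 column was left out. For tstd3.L the change of -0.29 at MII became 0.25 after centring. Genes with a dominant site past the level limit numbered 56, all lower (13.1%, against 3.37% of all genes). At 1.5-fold there were 113, of which 101 were lower (23.7%, against 8.49% of all genes). The other 12 of the 427 were higher, against 694 of all 11765 genes. At 3-fold there were 13, all lower (3.04%, against 0.935% of all genes). The median level ratio, 0.76 as a mean over both sets, lay between 0.71 and 0.83 under the 9 alternatives, all chosen after seeing the data. The stage VI difference in median share, 0.0250, lay between 0.0121 and 0.0315 under 9 alternatives. Between column sets x and y this difference had a standard deviation of 0.0191, which the alternatives do not cover. In each case the cause was not tested. Shares and levels carry no depth, which limits the reading of low values.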
